A study of Mus musculus with 12 samples.

Results

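The genes described here are those encoded by the mitochondrial genome itself, in mouse embryonic stem cells of 4 genotypes. They were taken as every entry of the count table that lies on chromosome M, and there were 37 of them among 43346 genes: 13 that encode proteins, 2 ribosomal RNAs and 22 transfer RNAs. Each genotype was represented by 3 RNA-seq libraries. The first group, called B6, was C57BL/6J, and the second, D2, was DBA/2J. The next, B6-13D2, was the congenic strain B6.D2-(rs30079041-rs51756099)/Bakr, a C57BL/6J background with a DBA/2J segment of chromosome 13. The last, D2-13B6, was the reciprocal congenic strain D2.B6-(rs29224292-rs13469455)/Bakr, a DBA/2J background with the C57BL/6J form of the segment. Cells of all groups were grown in a serum medium with pyruvate, the cytokine LIF and the kinase inhibitors PD0325901 at 1 µM and CHIR99021 at 3 µM, which keep embryonic stem cells undifferentiated. Per the labels' protocols the 3 libraries of a strain were separate cultures of a single cell line, although the titles call them technical replicates, so that a strain and its cell line cannot be told apart and p-values measure only the spread between cultures. The labels conflict on some points: the third B6 library carries another line name, the line named in the D2 titles differs from the one in the cell line field, and the end of the D2-13B6 segment is given in 2 ways. The labels do not say from which parent the congenic strains inherited their mitochondria. The congenic library names carry a prefix that the parental names lack, so a preparation or sequencing batch, if there was one, cannot be told apart from congenic against parental.

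Mammalian mitochondrial DNA is a small circle without introns. Both strands are transcribed into long precursors by a polymerase encoded in the nucleus, and the precursors are cut at the transfer RNAs that lie between most of the genes. The resulting messenger RNAs encode core subunits of respiratory complexes I, III and IV and of the ATP synthase, complex V, while all the other subunits, the ribosomal proteins and the factors for transcription and replication come from nuclear genes. Nuclear chromosomes also carry copies of mitochondrial DNA inserted over evolution, and reads that match both places have to be divided by the counting program.

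The 15 longer genes and their copies set what could be measured, so a few sequences are shown first. All of them are from the GENCODE M21 transcripts (GRCm38), written 5′ to 3′ on the strand of the gene. A block on chromosome 1, minus strand, holds near-exact annotated copies of 7 neighbouring mitochondrial protein genes. The copy of mt-Nd4l, a complex I subunit gene at chrM:9877-10173, is Gm10222 at chr1:24612407-24612700. Over its 294 bases it has 0 mismatches to the mitochondrial gene, so no read inside it can be placed by sequence, and the first 50 bases of both are shown, with no capital because they do not differ.
mt-Nd4l and Gm10222: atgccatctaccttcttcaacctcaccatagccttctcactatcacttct
The copy of mt-Nd3, another complex I subunit gene at chrM:9459-9806, is Gm28438 at chr1:24612775-24613119. The pair differs at 1 of 345 bases, given as T3C counted from the 5′ end of mt-Nd3, and the capital marks it.
mt-Nd3: atTaacctgtacactgttatcttcatt
Gm28438: atCaacctgtacactgttatcttcatt
The copy of mt-Co1, the gene of the catalytic subunit of cytochrome c oxidase at chrM:5328-6872, is Gm29216 at chr1:24615706-24616197. It covers the last part of the gene and matches 482 of 483 aligned bases, with the difference A1066T counted from the 5′ end of mt-Co1 and marked by the capital.
mt-Co1: ggaAttgttttatccaactcatcccttg
Gm29216: ggaTttgttttatccaactcatcccttg
The other copies in the block, each with 0 mismatches over its length, are Gm28661 of mt-Co2 (681 bp), Gm10925 of mt-Atp6 (678 bp), Gm28437 of mt-Co3 (783 bp) and Gm28439 of the first 876 bases of mt-Nd4. By contrast, the transfer RNA genes are 59 to 75 bp long, below the read length of 150 bp, and were listed at exactly 0 in all 12 libraries, so nothing can be said of their levels. The longest and the shortest are shown for scale, mt-Tl1 for leucine at chrM:2676-2750 and mt-Ts2 for serine.
mt-Tl1: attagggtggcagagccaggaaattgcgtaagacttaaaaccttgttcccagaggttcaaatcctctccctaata
mt-Ts2: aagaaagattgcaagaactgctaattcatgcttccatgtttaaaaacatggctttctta

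Library totals ran from 22184196 to 36411799 expected counts. Of the 37 mitochondrial genes, 15 were above 0 and all 15 passed the filter on low counts, as did 17148 genes in all. Markers of embryonic stem cells (Pou5f1, Nanog, Sox2, Klf4, Esrrb, Zfp42 and Tfcp2l1) summed to 3655 to 3809 CPM (counts per 1e6 of the scaled library total) for B6, 2595 to 2619 CPM for D2, 4113 to 4239 CPM for B6-13D2 and 2980 to 2984 CPM for D2-13B6, and none of the 7 was at 0. Of these 7, 6 were lower in D2 than in B6, 6 higher and 1 lower in B6-13D2 than in B6, and 5 higher in D2-13B6 than in D2. Among all tested genes, 30.3% were lower in the first of these comparisons, 25.4% higher and 32.9% lower in the next, and 27.6% higher in the last. Markers of fibroblasts, the usual feeder cells, summed to 9374 to 10182 CPM for B6, 14161 to 16949 CPM for D2, 3092 to 3179 CPM for B6-13D2 and 7720 to 8044 CPM for D2-13B6, and none of these 6 genes (Col1a1, Col1a2, Col3a1, Thy1, Postn, Pdgfrb) was at 0. All 6 were called in each main comparison, where 60.0%, 58.3% and 57.3% of all genes were called: they were higher in D2 than in B6, lower in B6-13D2 than in B6 and lower in D2-13B6 than in D2. Since these are bulk samples, fewer cells of a type and less RNA per cell cannot be told apart. The part of both marker lists in the mitochondrial results below was not tested.

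Chromosome M took about 3 percent of all counts. The share was 2.97%, 3.49% and 3.07% in the B6 libraries, with a mean of 3.18% ± 0.274 (SD, n = 3). It was 2.86%, 2.92% and 3.46% in D2 (3.08% ± 0.331, SD, n = 3). It was 2.55%, 2.66% and 2.72% in B6-13D2 (2.65% ± 0.0865, SD, n = 3), and 3.22%, 3.28% and 3.41% in D2-13B6 (3.31% ± 0.0936, SD, n = 3). All 3 B6-13D2 libraries lay below each of the other 9, while the other 3 groups overlapped, except that each D2-13B6 library lay above 2 of the 3 libraries of B6 and of D2. An exact permutation test over the 15400 ways to divide 12 libraries into 4 groups of 3 gave p = 0.0392, and 0.0523 after Benjamini-Hochberg adjustment over the 4 summary quantities tested (this share, the rRNA share and the 2 ratios given further on), which misses 0.05. Leaving out any single library of a congenic group raised the unadjusted exact p to between 0.0671 and 0.124. For a pair of groups the exact test cannot go below 0.1, which is what B6-13D2 gave against each of the others. With the counts of the nuclear copies added, the means were 3.75%, 3.63%, 3.11% and 3.82% in the same order (n = 3 each), with an exact permutation p of 0.0336. The 2 rRNAs, which are the most abundant mitochondrial RNAs in a cell, made up 0.0684% of counts in B6, 0.0629% for D2, 0.0558% for B6-13D2 and 0.0715% for D2-13B6. The libraries were made with a kit for messenger RNA, and the labels do not describe how the RNA was selected. The share of the rRNAs gave an exact permutation p of 0.200 over the groups (n = 3 each).

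**Figure D1:**
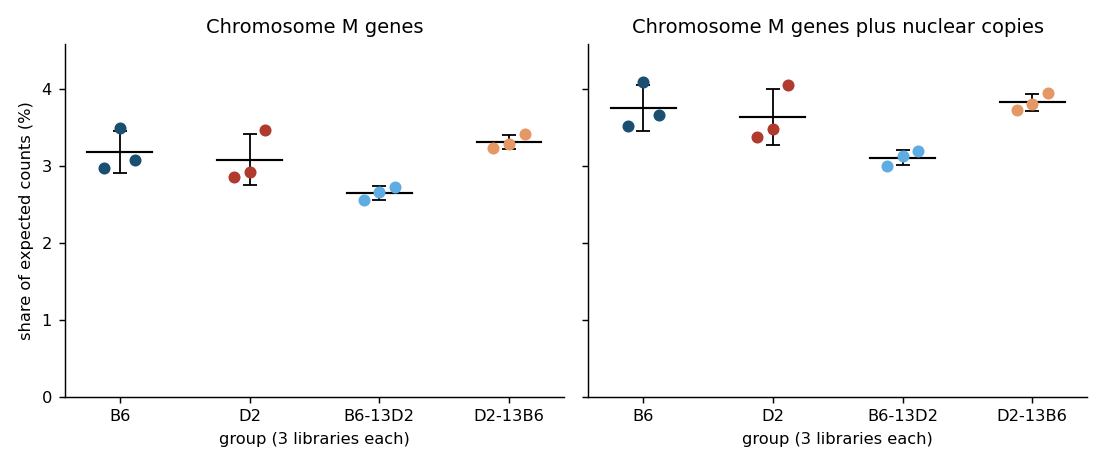
Share of expected counts on chromosome M, in percent of each library's total, for the 12 libraries in their 4 groups, alone and with the nuclear copies added. Points are libraries, and the bars give the mean and SD of 3. The B6-13D2 libraries sit at 2.55% to 2.72%, below all the others.

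The libraries of a group did not vary gene by gene alone. B6 replicate 2 had the highest CPM of its group for 14 of the 15 genes, D2 replicate 3 for 15 of 15 and D2-13B6 replicate 3 for 13 of 15. At the other end, B6 replicate 1 was lowest for 11 genes, D2 replicate 1 for 11 and D2-13B6 replicate 1 for 12. In B6-13D2 no library stood out, the highest being spread over 4, 5 and 6 genes. The genes within a library are therefore not independent of each other.

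Levels between genes were compared as CPM per kilobase of annotated length, with the counts of each copy added to its mitochondrial gene. The length was not corrected for the read length of 150 bp. Short genes such as mt-Atp8 (204 bp), mt-Nd4l (297 bp) and mt-Nd3 (348 bp) have fewer positions for a whole read than their length implies. The order below therefore holds for this measure only, and another length measure was not tested. By that measure mt-Co1 was first in every group, at 9804 ± 844 for B6, 9614 ± 950 for D2, 8232 ± 375 for B6-13D2 and 11688 ± 202 for D2-13B6 (SD, n = 3 each). Next came mt-Co2, the gene of the cytochrome c oxidase subunit that accepts electrons from cytochrome c, and then mt-Atp8, the gene of a small membrane subunit of ATP synthase. In B6 these measured 4668 ± 405 and 4591 ± 320 CPM per kilobase (SD, n = 3) and did not differ beyond their spread. They overlapped in D2 and D2-13B6 as well, whereas in B6-13D2, at 4072 ± 282 and 3133 ± 72.9, all 3 libraries of mt-Co2 were above those of mt-Atp8. A middle group in B6 consisted of mt-Nd4l (3375 ± 220), mt-Nd1 (3324 ± 238), mt-Atp6 (3136 ± 487) and mt-Co3 (2767 ± 176), of which each overlapped its neighbour. Next were mt-Cytb (2247 ± 121) and mt-Nd4 (2109 ± 207), then mt-Nd2 (1624 ± 177) and mt-Nd5 (1505 ± 140). At the low end of the protein genes were mt-Nd3 (844 ± 58.6) and mt-Nd6 (688 ± 111), the latter the only protein gene read from the opposite strand. The rRNAs were last in every group, with mt-Rnr2, the large ribosomal RNA, at 378 ± 52.7 and mt-Rnr1, the small one, at 117 ± 15.9 CPM per kilobase in B6.

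**Figure D2:**
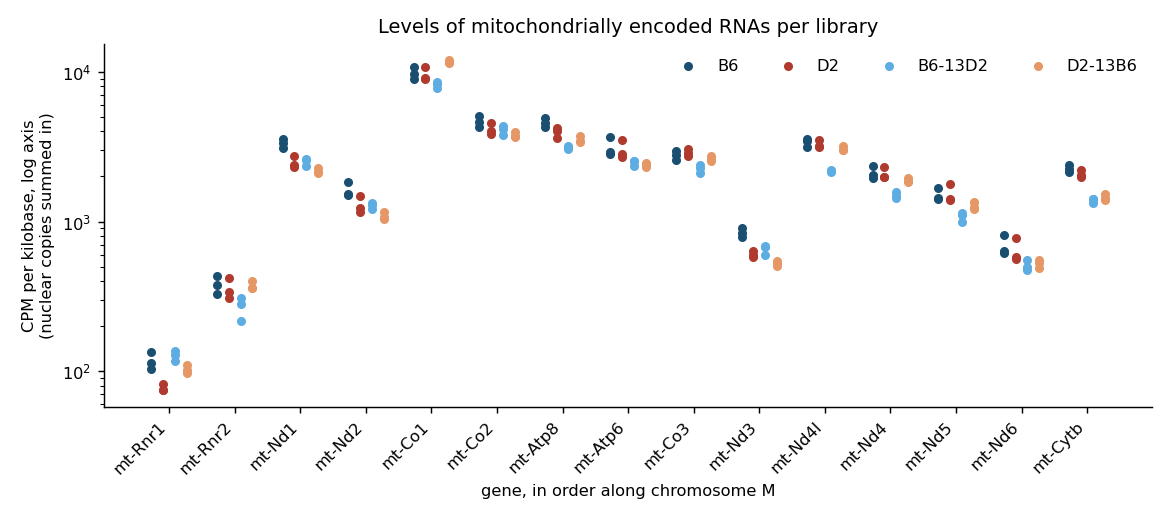
Level of each of the 15 measured mitochondrial genes in CPM per kilobase of annotated length on a log axis, copies summed, with a point per library in the 4 groups. The mt-Co1 points are the highest in every group and the mt-Rnr1 points the lowest.

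Without the copies the order changed, since the counting program gave large parts of several genes to chromosome 1. As deposited, mt-Atp8 came after mt-Co1 and was followed by mt-Nd1 in every group. The mitochondrial entry held 77.0% to 82.8% of the joint counts of mt-Nd4 and Gm28439 (group means), 44.8% to 45.7% for mt-Co3, 33.5% to 36.4% for mt-Atp6 and 35.0% to 37.8% for mt-Co2. For mt-Co1 the split was of another order: Gm29216 never had more than 12.9 counts against 317260 to 650525 for mt-Co1. The counts of the 8 measured genes without an annotated copy in the block were whole numbers in every library (within a tolerance of 1e-06). None of the 7 with a copy had whole numbers in every library. Unannotated copies were not searched for, also not for mt-Atp8, whose neighbours mt-Co2 and mt-Atp6 both have a copy.

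For mt-Nd3 the larger part of the counts lay on the nuclear copy. The mitochondrial entry held 23.7%, 24.8% and 17.4% of the joint counts in B6, 13.7%, 13.3% and 19.1% for D2, 34.8%, 28.9% and 29.0% in B6-13D2 and 23.5%, 15.8% and 19.1% in D2-13B6. The B6-13D2 libraries were all above the other 9, and the other groups overlapped. The 4 groups differed by the exact permutation test (n = 3 each), at p = 0.00539 and 0.0306 after adjustment over the 6 genes with a copy of comparable counts. The split of mt-Co3 also differed, by a small amount, from 44.8% ± 0.250 in D2 to 45.7% ± 0.312 in B6-13D2 (SD, n = 3, exact permutation p = 0.0102, adjusted 0.0306). For mt-Nd4l the split was 58.5%, 71.6% and 41.4% in B6, the lowest in the library whose title names another line. Its exact permutation p over the groups (n = 3 each) was 0.938, and the adjusted p of the other 3 genes was 0.183. In the main comparisons below, a level of mt-Nd3 or mt-Nd4l as deposited is therefore given together with the summed value.

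**Figure D3:**
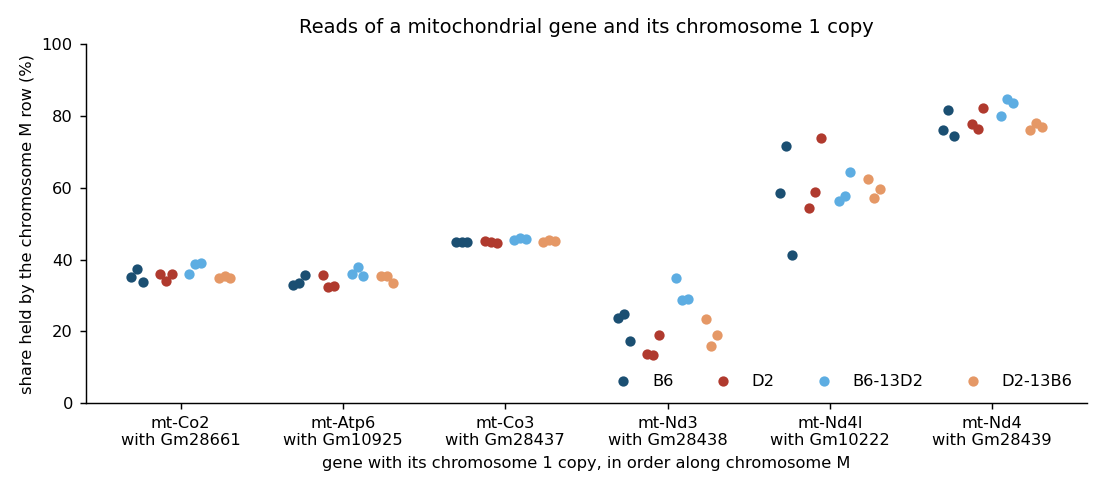
Percent of the joint counts of a mitochondrial gene and its chromosome 1 copy that the table gives to the mitochondrial entry, by library and group, for 6 genes. For mt-Nd3 the B6-13D2 libraries are the highest, and for mt-Nd4l the B6 libraries run from 41.4% to 71.6%.

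D2 against B6 compares the parental strains. In this comparison 5 of the 15 genes fell and 0 rose by the edgeR quasi-likelihood test at an adjusted p of 0.05 (8 fell without D2 replicate 3, and 1 rose without B6 replicate 2), against 60.0% of all tested genes called in either direction, 29.8% higher and 30.3% lower. The median log2 fold change of the 15 was -0.10, and that of all genes tested was 0.01. Among the 7 complex I genes 3 fell. The level of mt-Nd3 was 64.8, 72.5 and 54.6 CPM in B6 and 28.5, 29.2 and 38.2 CPM in D2. All D2 libraries were lower than all B6 libraries, and the fall was -1.01 on the log2 scale (SE 0.12, edgeR adjusted p = 1.03e-06). With Gm28438 added, the values were 274, 293 and 314 CPM in B6 and 208, 220 and 200.4 in D2. The groups stayed apart and the log2 fold change was -0.49 (SE 0.056, edgeR adjusted p = 7.33e-07), less than with the mitochondrial entry alone.

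The other complex I genes that fell in D2 were mt-Nd1 and mt-Nd2, both membrane-arm subunits and neither with an annotated copy in the block. For mt-Nd1 (chrM:2751-3707) the B6 libraries were at 2950, 3404 and 3191 CPM and the D2 libraries at 2215, 2289 and 2613. The groups did not overlap, with a log2 change of -0.42 (SE 0.059, edgeR adjusted p = 7.49e-06). For mt-Nd2 (chrM:3914-4951) the log2 fold change was -0.33 (SE 0.080, edgeR adjusted p = 0.00158), again without overlap. The small ribosomal RNA mt-Rnr1 (chrM:70-1024) was at 109, 129 and 98.6 CPM in B6 and at 71.6, 71.4 and 78.3 in D2. It fell by 0.61 on the log2 scale (SE 0.078, edgeR adjusted p = 2.84e-06), while mt-Rnr2 was at -0.09 (SE 0.12, adjusted p = 0.522). The fifth gene that fell was mt-Atp8, with -0.22 (SE 0.056, edgeR adjusted p = 0.0025). For mt-Co1, the most abundant, the log2 fold change was -0.03 (SE 0.060, adjusted p = 0.705). For mt-Cytb, the only mitochondrial subunit gene of complex III, it was -0.11 (SE 0.047, adjusted p = 0.0528). With the copies summed, 6 of 15 fell and 0 rose, against 60.1% of all genes called in that fit, 29.8% higher and 30.3% lower.

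B6-13D2 against B6 asks what accompanied the DBA/2J segment in a C57BL/6J background. The 15 genes mostly had lower values, with 12 called lower and 0 higher, against 58.3% of all genes called in either direction, 25.4% higher and 32.9% lower. The median log2 fold change was -0.40, beside -0.04 for all genes tested. All 5 kinds of product were represented: 6 of 7 complex I genes, the complex III gene, 2 of 3 complex IV genes, both ATP synthase genes and 1 of 2 rRNAs fell. With the copies summed, 14 of 15 fell and 0 rose, against 58.4% of all genes called in that fit, 25.4% higher and 32.9% lower. The gene not called in the summed fit was mt-Rnr1, at 129.9, 112 and 123 CPM in B6-13D2 beside 109, 129 and 98.6 in B6, with a log2 change of 0.12 (SE 0.075, edgeR adjusted p = 0.195).

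The strongest fall was that of mt-Cytb (chrM:14145-15288). It was at 2432, 2709 and 2571 CPM in B6 and at 1524, 1614 and 1609 CPM in B6-13D2. The groups lay far apart in relation to their spread, and the log2 fold change was -0.70 (SE 0.047, edgeR adjusted p = 5.39e-10). For mt-Atp8 (chrM:7766-7969) the values were 872, 934 and 1003 CPM in B6 and 650.0, 645 and 622 in B6-13D2, without overlap, with a log2 change of -0.55 (SE 0.056, edgeR adjusted p = 1.33e-07). The complex I gene mt-Nd4l, counted with Gm10222, was at 929, 1023 and 1055 CPM in B6 and at 652, 641 and 650.5 in B6-13D2. It fell by 0.63 on the log2 scale (SE 0.048, edgeR adjusted p = 2.48e-09). The mitochondrial entry alone gave -0.57 with a larger error (SE 0.15, edgeR adjusted p = 0.00283).

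The other falls were smaller. For mt-Co1 the B6 libraries were at 13928, 16521 and 14995 CPM and the B6-13D2 libraries at 12125, 13279 and 12751. All of the latter were below the former, by -0.25 (SE 0.060, edgeR adjusted p = 0.00157). The complex I genes mt-Nd5 (-0.48, SE 0.083), mt-Nd6 (-0.44, SE 0.11), mt-Nd1 (-0.40, SE 0.059), mt-Nd4 (-0.40, SE 0.087) and mt-Nd2 (-0.35, SE 0.080) all fell without overlap of the groups. The mitochondrial entries of mt-Nd3 (0.12, SE 0.11, edgeR adjusted p = 0.379) and mt-Co2 (-0.10, SE 0.086, adjusted p = 0.317) were not called. With their copies added both were: mt-Nd3 fell by 0.38 (edgeR adjusted p = 1.31e-05) and mt-Co2 by 0.20 (adjusted p = 0.0140). The sign for mt-Nd3 thus differed between the mitochondrial entry and the sum with Gm28438, which itself fell from 209, 220 and 259.9 CPM in B6 to 135, 169 and 166 in B6-13D2.

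How far the genes moved together was examined by scaling each library to its total mitochondrial messenger RNA instead of to all genes. That scaling moved the median of all tested genes in this comparison from -0.04 to 0.30, so the values are relative to the total of the mitochondrial messengers, each gene included. As deposited, mt-Co1 alone made up 46.8% (B6) to 57.8% (D2-13B6) of that total (group means). A change of mt-Co1 is thus partly cancelled by the scaling and moves the other genes the opposite way. Of the 15 genes, 2 were then lower and 3 higher, against 62.2% of all genes called in that fit, 47.7% higher and 14.5% lower. The lower ones were mt-Cytb (-0.36, edgeR adjusted p = 0.000128) and mt-Atp8 (-0.21, adjusted p = 0.0288), and the higher ones mt-Rnr1 (0.46, adjusted p = 0.000111), mt-Nd3 (0.46, adjusted p = 0.00088) and mt-Co2 (0.24, adjusted p = 0.00963). With copies summed under the same scaling, mt-Nd3 was at -0.03 (edgeR adjusted p = 0.753) and no longer called, while mt-Nd4l was called lower at -0.28 (adjusted p = 0.00167). The scaling shifts all genes of a library alike, so signs are to be read against it. The values of mt-Co1 (0.09), mt-Co3 (0.06) and mt-Atp6 (0.10) were then not called.

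D2-13B6 against D2 is the reciprocal comparison, the C57BL/6J segment in a DBA/2J background. Here 2 of the 15 genes rose and 7 fell, against 57.3% of all genes called in either direction, 27.6% higher and 29.7% lower. The median log2 fold change was -0.17, beside 0.00 for all genes. The genes that rose were mt-Co1 and mt-Rnr1. For mt-Co1 the D2 libraries were at 13917, 14101 and 16543 CPM and the D2-13B6 libraries at 17784, 17991 and 18395. All D2-13B6 libraries were above all D2 libraries, with a log2 change of 0.28 (SE 0.060, edgeR adjusted p = 0.000633). The level of mt-Rnr1 went from 71.6, 71.4 and 78.3 CPM to 93.3, 98.0 and 105, without overlap, a log2 change of 0.42 (SE 0.077, edgeR adjusted p = 0.00014).

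Among the genes that fell in D2-13B6, mt-Cytb was again first. It was at 2254, 2357 and 2541 CPM in D2 and at 1597, 1647 and 1738 in D2-13B6. The groups were well separated, and the log2 fold change was -0.52 (SE 0.047, edgeR adjusted p = 3.21e-08). The remaining falls were small: mt-Nd6 -0.29 (SE 0.11), mt-Atp6 -0.27 (SE 0.085), mt-Nd5 -0.27 (SE 0.082), mt-Nd2 -0.24 (SE 0.080), mt-Nd1 -0.19 (SE 0.059) and mt-Atp8 -0.16 (SE 0.056), with edgeR adjusted p between 0.00968 and 0.0315. They depended on single libraries. Without D2 replicate 3, the library with the highest value of all 15 genes in its group, only 1 gene, mt-Cytb at -0.48, was called lower, and without D2-13B6 replicate 1 there were 3. With DESeq2 the calls of mt-Nd2 (adjusted p = 0.0521) and mt-Nd6 (adjusted p = 0.112) were lost. The calls of mt-Co1, mt-Rnr1 and mt-Cytb held when each of the 12 libraries was left out in turn. With the copies summed, 2 genes rose and 9 fell, against 57.3% of all genes called in that fit, 27.6% higher and 29.7% lower. Among those that fell was mt-Nd3 at -0.19 (edgeR adjusted p = 0.00735), where the mitochondrial entry gave 0.17 (adjusted p = 0.257).

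**Figure D4:**
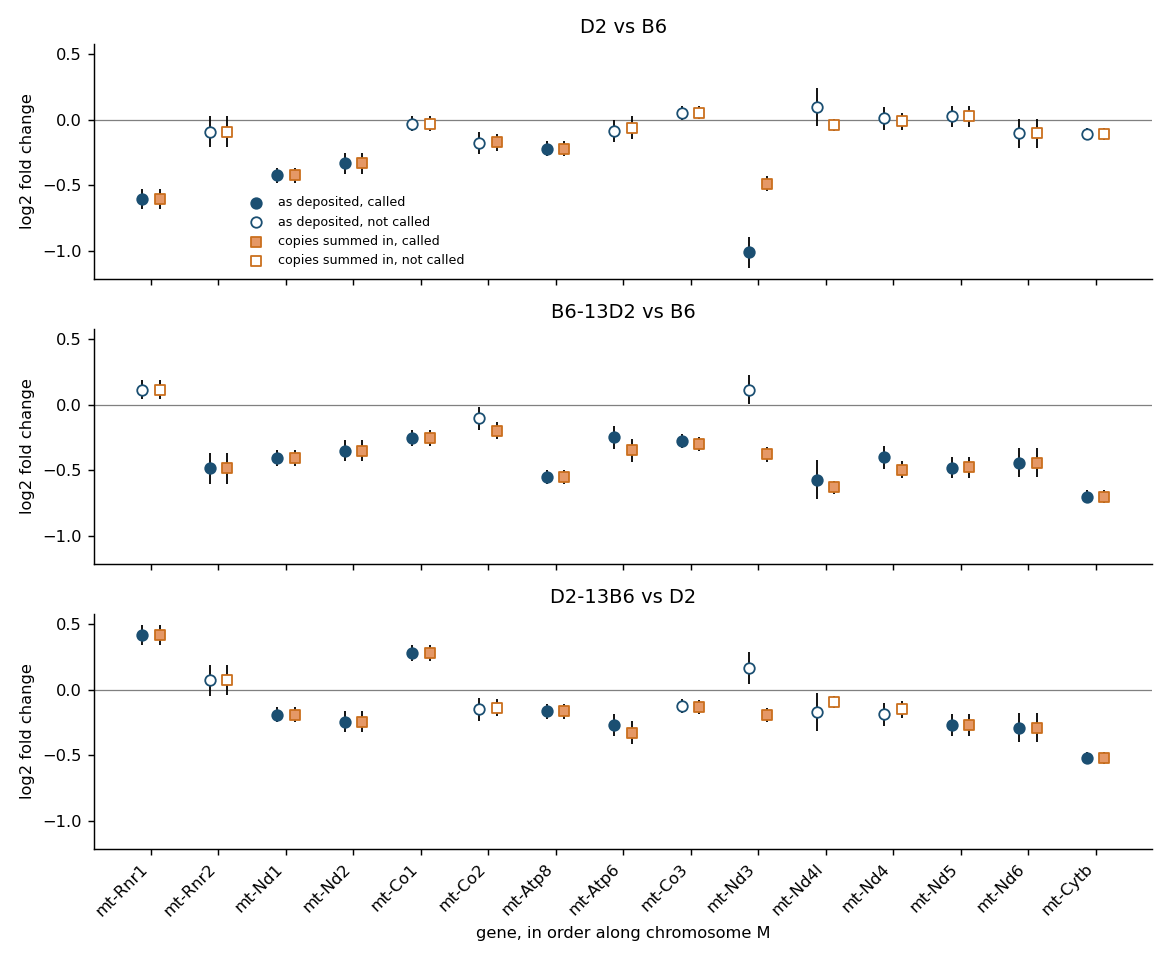
log2 fold change with its SE for the 15 measured mitochondrial genes in 3 comparisons, for the mitochondrial entries as deposited (circles) and with copies summed (squares), with filled symbols where the edgeR adjusted p was below 0.05. Most points lie below 0 in B6-13D2 against B6, and mt-Co1 and mt-Rnr1 stand above 0 in D2-13B6 against D2.

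Whether the DBA/2J form of the segment had the same effect in both backgrounds was tested as a single contrast, B6-13D2 minus B6 less D2 minus D2-13B6, which equals the congenic pair minus the parental pair. It was called lower for 11 and higher for 1 of the 15 genes, against 64.5% of all genes called, 31.1% higher and 33.4% lower. For mt-Cytb it was -1.22 (SE 0.066, edgeR adjusted p = 1.89e-11), since this gene was lower in each congenic group than in its parent. Across groups, the CPM of mt-Cytb, mt-Nd5 and mt-Nd6 did not overlap between the 6 parental and the 6 congenic libraries. These were 3 of the 15 genes, against 16.9% of all tested genes. Only mt-Nd3 did not overlap between the 6 libraries of C57BL/6J background and the 6 of DBA/2J background, 1 of the 15 against 26.1% of all tested genes. With Gm28438 added this separation was lost (B6-13D2 at 207, 237 and 234 CPM, D2 at 208, 220 and 200.4). The comparisons above share libraries (B6 in the first pair, D2 in the first and the last), so their lists of calls are not independent of each other.

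Of the 3 remaining pairs, B6-13D2 against D2 and D2-13B6 against B6 set the backgrounds side by side with the same form of the segment, and the congenic pair differs in both. In B6-13D2 against D2, 2 genes were higher and 9 lower, against 74.6% of all genes called, 36.7% higher and 38.0% lower. With scaling to mitochondrial messenger RNA the counts were 5 higher and 3 lower, against 7793 higher and 4423 lower of 17148 genes in that fit. In D2-13B6 against B6, 1 was higher, mt-Co1 at 0.25 (SE 0.060, edgeR adjusted p = 0.0015), and 10 were lower, against 59.0% of all genes called, 24.5% higher and 34.6% lower. In D2-13B6 against B6-13D2, 7 were higher and 5 lower, against 70.2% of all genes called, 38.4% higher and 31.8% lower. Without D2-13B6 replicate 3 the higher count was 4, and without B6-13D2 replicate 3 or D2-13B6 replicate 1 the lower count was 3. Scaled to mitochondrial messenger RNA, 1 was higher and 8 lower in that pair, against 66.5% of all genes called in that fit. Of that scale mt-Co1 itself made up 49.8% in B6-13D2 and 57.8% in D2-13B6 (group means), so the lower calls depend in part on it. The last pair has the widest difference of mt-Co1, 0.51 (SE 0.060, edgeR adjusted p = 6.72e-07).

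Ratios between mitochondrial genes do not depend on the library total. The ratio of mt-Rnr2 to mt-Rnr1 counts was 5.48, 5.31 and 5.23 in B6, 6.82, 7.51 and 8.45 for D2, 3.78, 3.07 and 3.65 in B6-13D2 and 6.14, 5.79 and 6.05 in D2-13B6. No group overlapped any other in this ratio, D2 being the highest and B6-13D2 the lowest. The exact permutation test over the 4 groups (n = 3 each) gave 6.49e-05, the smallest p it can give, and 0.00026 after adjustment over the 4 quantities. Neither rRNA gene has an annotated copy in the chromosome 1 block.

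The share of mt-Co1 among the counts of the 13 protein genes, copies included, was 39.3%, 39.5% and 39.7% in B6 and 41.4%, 40.8% and 41.2% in D2. It was 42.1%, 43.2% and 41.6% in B6-13D2 and 50.4%, 50.1% and 49.2% in D2-13B6. The groups were apart from each other in every pair, and D2-13B6 lay well above the rest (49.9% ± 0.648 against 39.5% ± 0.203, 41.1% ± 0.298 and 42.3% ± 0.797, SD, n = 3 each, exact permutation p = 6.49e-05). Without the copies the means were 46.8%, 48.7%, 49.8% and 57.8% (n = 3 each, exact permutation p = 0.00013), and the D2 and B6-13D2 libraries then overlapped. For a pair of groups the exact test again could not go below 0.1.

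**Figure D5:**
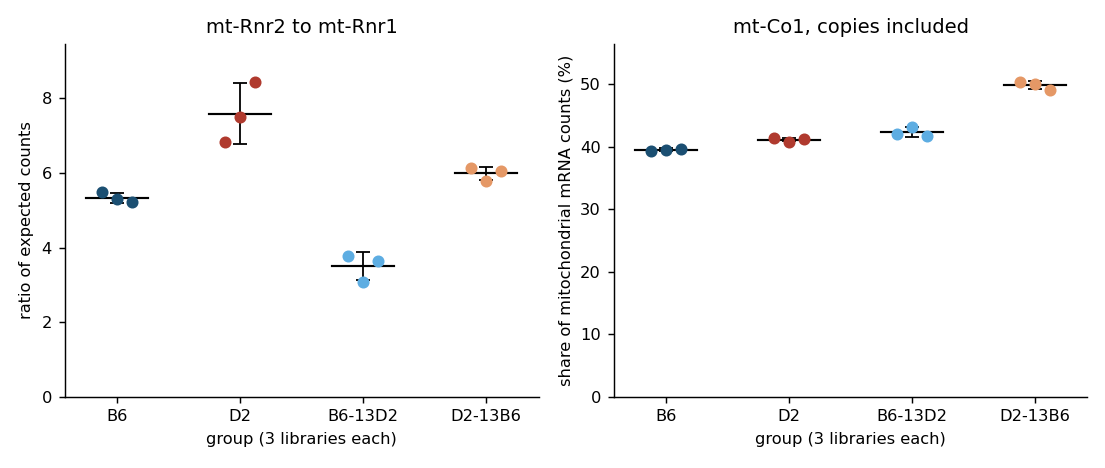
Ratio of mt-Rnr2 to mt-Rnr1 counts and share of mt-Co1 among the counts of the 13 mitochondrial protein genes (copies included, in percent), by library with the mean and SD of 3. No group overlaps another in either measure, with D2 highest in the first and D2-13B6 highest in the second.

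Position along the precursor was compared with the fold changes as a description, over the 12 protein genes of the plus strand, which share their libraries and their precursor. Spearman's rho between the start coordinate and the log2 fold change was 0.50 for the parental pair, -0.39 for B6-13D2 against B6, -0.31 for D2-13B6 against D2, -0.68 for B6-13D2 against D2, 0.06 for D2-13B6 against B6 and 0.34 for the congenic pair. With copies summed it was 0.47, -0.59, -0.28, -0.75, 0.035 and 0.36 in the same order. Of these genes mt-Cytb lies nearest the end of the precursor. Some neighbours also share bases. On the same strand, mt-Atp8 and mt-Atp6 overlap by 43 bp and mt-Nd4l and mt-Nd4 by 7 bp, and mt-Nd5 and mt-Nd6 overlap by 14 bp on opposite strands. These overlaps are shorter than the read length of 150 bp, and the counts of mt-Atp8, mt-Nd5 and mt-Nd6 were whole numbers in every library. Whether strand was used in counting is not given in the sources used here.

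Nuclear genes of the same system were read from the same fit. Of 83 tested nuclear subunits of the respiratory complexes, 5 were higher and 41 lower in D2 than in B6, with a median of -0.14, against 29.8% and 30.3% of all genes. In B6-13D2 against B6, 39 were higher and 1 lower, with a median of 0.14, against 25.4% and 32.9% of all genes. The mitochondrial members had 0 higher and 12 lower there. In D2-13B6 against D2, 17 were higher and 10 lower, with a median of 0.02, against 27.6% and 29.7% of all genes. The share of the 83 that was called was below the 60.0%, 58.3% and 57.3% of all genes in each. The 77 proteins of the mitochondrial ribosome had 4 higher and 33 lower, 43 higher and 4 lower, and 23 higher and 10 lower in the same 3 comparisons. Their called share was above that of all genes in B6-13D2 against B6 and below it in the others.

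The machinery of mitochondrial gene expression, 46 genes for transcription, processing, modification and decay of RNA, had 5 higher and 15 lower in D2, 18 higher and 5 lower in B6-13D2, and 19 higher and 6 lower in D2-13B6. The share of the 46 that was called was below the 60.0%, 58.3% and 57.3% of all genes in each. The genes of the polymerase Polrmt and the initiation factor Tfam, which also packs mitochondrial DNA, were lower in D2 than in B6 (-0.16, edgeR adjusted p = 0.00424, and -0.37, adjusted p = 2.75e-06). In B6-13D2 against B6 neither was called, at 0.07 for Polrmt and 0.10 for Tfam (adjusted p = 0.0626). In D2-13B6 against D2, Tfam rose by 0.22 (edgeR adjusted p = 0.000573), and Polrmt was at 0.04 and not called. The second initiation factor, Tfb2m, fell in both congenic groups, by 0.43 in B6-13D2 (edgeR adjusted p = 3.81e-05) and by 0.32 in D2-13B6 (adjusted p = 0.000608). Rexo2, which encodes an exonuclease for very short RNAs, rose in D2 (0.40, edgeR adjusted p = 2.55e-06) and fell in B6-13D2 (-0.66, adjusted p = 6.89e-09) and in D2-13B6 (-0.74, adjusted p = 8.69e-10). Mrm1, which encodes a methyltransferase for the large mitochondrial rRNA, rose in all 3 comparisons, by 0.39, 0.65 and 0.77 in the same order. Elongation factor Tefm rose in D2-13B6 (0.34, edgeR adjusted p = 0.000517), and so did Lrpprc, the gene of a messenger-stabilizing protein (0.14, adjusted p = 0.00187), while its partner Slirp rose in B6-13D2 (0.28, adjusted p = 0.00157).

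Of 16 genes for replication of mitochondrial DNA and its nucleotide supply, 1 was higher and 7 lower in D2, 7 higher and 2 lower in B6-13D2, and 8 higher and 2 lower in D2-13B6. In those comparisons 60.0%, 58.3% and 57.3% of all genes were called, so the shares of the list were near the background. Polg, the catalytic subunit of the mitochondrial DNA polymerase, rose in all 3 comparisons (0.17, 0.29 and 0.44). The helicase gene Twnk fell in D2 (-0.29, edgeR adjusted p = 0.000103) and rose in B6-13D2 (0.14, adjusted p = 0.0236) and D2-13B6 (0.32, adjusted p = 3.08e-05). Lig3, the gene of the DNA ligase used in mitochondria, had the highest called value of the machinery and replication genes whose mean log2 CPM reached 2 when D2-13B6 was set against D2, at 0.81 (edgeR adjusted p = 2.12e-12). The amount of mitochondrial DNA was not measured.

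A list of RNAs that usually lack a poly(A) tail, namely replication-dependent histone messengers and small structural RNAs, was read as well. Whether the RNA counted from these genes lacked a tail was not measured. Of 57 tested, 18 were higher and 2 lower in D2 than in B6, where 60.0% of all genes were called. In B6-13D2 against B6, 0 were higher and 18 lower, where 58.3% of all genes were called, and in D2-13B6 against D2, 3 were higher and 17 lower, where 57.3% were called. The share of the list that was called was thus below that of all genes each time. Its median log2 fold changes were 0.60, -0.52 and -0.46, beside 0.01, -0.04 and 0.00 for all genes. Their summed level was 195 to 205 CPM in B6, 279.9 to 322 for D2, 86.5 to 92.5 in B6-13D2 and 165 to 168 in D2-13B6. B6-13D2, the group with the lowest mitochondrial share, was also lowest in this sum and in the fibroblast markers, whereas D2 was highest in both without having the highest mitochondrial share. The part of these differences in the mitochondrial levels was not tested.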

How the data were processed

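Per the labels' protocols, RNA of separate cultures was made into libraries with a messenger RNA kit and sequenced in paired reads of 150 bp. The authors deposited expected counts per gene, estimated by EMASE per the file's own title, with reads that match several genes divided between them. The submitters' processing notes name Bowtie 1.0.0, edgeR 3.34.1 and the build mm10, without a role. Of 43346 genes, 42462 are in GENCODE M21, whose coordinates (GRCm38) are used here. All 12 columns were mapped to samples by name.

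The expected counts were rounded and the whole table was fitted with edgeR 4.0.16 (R 4.3.3): filterByExpr with a minimum count of 10, TMM scaling, 4 group means, quasi-likelihood test, and Benjamini-Hochberg adjustment over 17148 genes, with a call at 0.05. CPM are per TMM-scaled library, and shares are of the unscaled total. Nuclear copies were searched for among annotated GENCODE M21 transcripts only, with blastn 2.17.0 (at least 90% identity over at least 80% of the copy). Single values per library were compared with exact two-sided permutation tests. Intervals from counting are not given, as the spread between cultures was larger: over all genes, the chi-square per degree of freedom between libraries of a group ran from 1.96 to 8.09. Replicate numbers did not pair the samples across groups (18 same-number pairs, correlation of deviations -0.161 to 0.0981), so no block was used.

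On data simulated for D2 against B6 (16730 genes), the edgeR step called 56% of genes changed 1.25-fold and 81.6% of those changed 1.5-fold, with 7 false calls. Only a small part of the genes was changed, in D2 alone, and all genes were given the same dispersion. In the real comparison 60.0% of genes were called, so these rates need not hold there. The alternatives were DESeq2 1.42.0, relative log scaling, other filters, a fold minimum, copies summed, scaling to mitochondrial messenger RNA, a replicate block, and leaving out each library. Summing the copies into their genes, alone or with that scaling, was chosen after seeing the data. Every chromosome M gene and nuclear copy could be named. Of the machinery genes, 8 were listed by name, and the others are the 3 highest and 3 lowest called log2 fold changes per comparison at a mean log2 CPM of at least 2. The members and all lists were chosen with earlier results of these data known.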

Additional observations from a re-analysis of the deposited data

Results flagged for a closer look

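For 12 of the 15 measured mitochondrial genes the effect of the chromosome 13 segment (DBA/2J form minus C57BL/6J form) differed between the C57BL/6J and the DBA/2J background by the edgeR interaction contrast at an adjusted p of 0.05, where 64.5% of all tested genes were called. The difference in log2 units was positive for 1 gene, mt-Rnr1 (0.54), and negative for 11. Those were mt-Cytb (-1.22), mt-Nd5 (-0.75), mt-Nd4l (-0.74), mt-Nd6 (-0.73), mt-Atp8 (-0.72), mt-Nd2 (-0.59), mt-Nd1 (-0.59), mt-Nd4 (-0.59), mt-Atp6 (-0.52), mt-Rnr2 (-0.41) and mt-Co3 (-0.40). The same number is the sum of the congenic groups minus the sum of the parental groups, so a batch that separates congenic from parental libraries cannot be told apart from it. For the entries as deposited, scaling to mitochondrial messenger RNA lost the lower calls of mt-Rnr2 (-0.09), mt-Co3 (-0.10) and mt-Atp6 (-0.21). The same edgeR test then called mt-Co1 (0.34) and mt-Nd3 (0.59) higher, mt-Nd3 not with copies summed (-0.24). With copies summed under that scaling, 2 of the 15 were higher and 9 lower, against 7429 higher and 3337 lower of 17141 genes. Leaving out each library in turn left 10 to 11 genes lower and 1 to 2 higher.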

How the results depend on the processing

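Of the counts and shares compared, 241 values under another setting kept their size and direction and 52 moved, and with a library left out 480 kept them, 30 moved and 6 lost the threshold. The replicate block gave (higher/lower of 15) 0/7 for the parental pair, 0/12 for B6-13D2 against B6, 2/8 in D2-13B6 against D2, 2/9 in B6-13D2 against D2, 1/9 in D2-13B6 against B6, 7/5 between the congenic groups and 1/12 for the difference of effects. Without the filter on low counts the counts were 1/9 in D2 against B6, 4/11 in D2-13B6 against D2, 2 higher in B6-13D2 against B6 and 2 higher for the difference. With a minimum log2 fold change of 1 they were 0/1 for the parental pair, 0 lower for B6-13D2 against B6, 1/0 in B6-13D2 against D2, 0/1 for the difference and 0/0 elsewhere. Relative log scaling gave 1 higher in B6-13D2 against B6, and copies summed 1 higher in B6-13D2 against D2. Scaled to mitochondrial messenger RNA the counts were 3/2 in B6-13D2 against B6, 5/3 in B6-13D2 against D2, 1/8 between the congenic groups and 3/8 for the difference, and with copies summed as well 2/3, 5/4, 2/8 and 2/9.

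Under that scaling, first as deposited and then with copies summed, and counting only genes called in either fit, the sign reversed in B6-13D2 against B6 for mt-Atp6 (0.097, 0.0087), mt-Co1 (0.089, 0.098), mt-Co2 (0.24, 0.15), mt-Co3 (0.063, 0.048) and mt-Nd2 (copies summed, 0.0038). It reversed in B6-13D2 against D2 for mt-Co1 (0.032, 0.040) and mt-Nd2 (0.24, 0.25). Between the congenic groups it reversed for mt-Atp8 (-0.12, -0.10), mt-Co3 (-0.085, -0.044), mt-Cytb (-0.22, -0.20), mt-Nd4 (as deposited, -0.062), mt-Nd5 (-0.058, -0.036) and mt-Nd6 (-0.24, -0.22). By the same rule, copies summed alone reversed mt-Nd3, to -0.38 in B6-13D2 against B6, -0.19 in D2-13B6 against D2 and -0.57 for the difference. The scaling shifts all genes of a library alike, so values smaller than the shift change sign by construction, and the sum for mt-Nd3 is mostly Gm28438.

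Leaving out 1 library moved the counts over these ranges: D2 against B6 0 to 1 higher and 5 to 8 lower, B6-13D2 against B6 0 to 1 higher, D2-13B6 against D2 1 to 9 lower (lowest without D2 replicate 3), the congenic groups 4 to 7 higher and 3 to 5 lower, and the difference 1 to 2 higher. The exact permutation p of the chromosome M share (n = 3 a group) ran from 0.00805 to 0.124. For replication genes the range was 0 to 1 higher in D2 and 1 to 2 lower in D2-13B6. For nuclear respiratory subunits it was 1 to 7 higher in D2, 0 to 2 lower in B6-13D2 and 5 to 14 lower in D2-13B6. Of the other settings, replication genes gave 11 higher in B6-13D2 (mean CPM of at least 1, relative log scaling) and 1 lower in D2-13B6 (DESeq2, no filter). Respiratory subunits gave 26 lower in D2 (DESeq2) and 0 lower in B6-13D2 (DESeq2, relative log scaling, no filter, mean CPM of at least 1). Ribosomal proteins gave 7 higher (relative log scaling) or 8 higher (mean CPM of at least 1) in D2 and 1 lower in B6-13D2 (DESeq2). The share with copies was 3.75%, 3.63%, 3.11% and 3.82% in B6, D2, B6-13D2 and D2-13B6, and the D2-13B6 value without copies, 3.31%, became 3.44% as a ratio to other counts and 3.19% of the TMM-scaled total, where B6 at 3.31% was higher than D2-13B6, the reverse of the unscaled order. Transfer RNAs, listed at 0, and the division of reads between genes and copies limit what these counts can show.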
